A study of Brassica napus with 6 samples.

Results

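The genes described here lie in 2 chromosome blocks of oilseed rape (Brassica napus) near the far ends of chromosomes A07 and C06, where transcript levels in a bnsdp1 mutant were shifted in opposite directions, downward on A07 and upward on C06. Members were all genes that start from 26 Mb to just under 32 Mb on A07 or from 44 Mb to just under 52 Mb on C06, and whose level averaged at least 1 CPM, that is, counts relative to the total of their library, over the 6 libraries. They number 1167 of the 43418 genes that pass this level anywhere in the genome, 585 of them on A07 and 582 on C06. The blocks were chosen by their mutant to wild-type ratios, which stood apart in these libraries, so their shifts are given as a description, with no test. Poly(A) RNA was sequenced from cotyledons, the seed leaves, of 3 wild-type (WT) libraries and 3 libraries of the mutant line bnsdp1#CR88. All seedlings had grown on medium with 1% sucrose, had spent 4 days in darkness and were moved to normal conditions for the last 6 h. The mutant is represented by that single line, and the labels do not say whether the libraries of a genotype came from separate sets of seedlings, so any p-value measures only the spread between libraries, which may be technical.

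Brassica napus is an allotetraploid: its nucleus joins the A genome of Brassica rapa with the C genome of Brassica oleracea, and most genes are therefore present as a related A copy and C copy. Parts of chromosomes A07 and C06 descend from the same ancestral chromosome segments. Related A and C chromosomes of this species can exchange segments at meiosis, so that plants can carry more copies of a C segment and fewer of its A counterpart, or the reverse. SDP1 (SUGAR-DEPENDENT1) is the lipase that starts the breakdown of stored seed oil in germinating seedlings. The files hold RNA counts, and DNA copy number was not analysed here. The identifiers are not paired with gene names in the tables used here, so no member is given a role, and the levels of SDP1 and of cotyledon markers were not analysed here.

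The libraries held between 48288744 and 65550668 counts in genes. The A07 block contained 1053 annotated genes, of which 468 fell below the level filter and 145 had no read in any library. The C06 block contained 1167 annotated genes, with 585 below the filter and 247 without a read. All 1167 members also entered the gene test, which covered 56385 genes. The filter was passed through the WT libraries alone by 43 members on A07 and 21 on C06, and through the mutant libraries alone by 11 and 20. Those members had to differ between the genotypes. In bulk RNA, fewer cells that express a gene and less RNA per cell cannot be told apart.

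The A07 block was lower in all 3 mutant libraries, and by unequal amounts. Each library's shift is the median over members of the log2 ratio of its CPM to the WT mean, with 0.5 CPM added to both, and that of all expressed genes was subtracted. On A07 the shift was -0.40 in mutant replicate 1, -0.21 in replicate 2 and -0.97 in replicate 3, which correspond to median levels of 0.757, 0.866 and 0.512 times the WT. On C06 the same libraries were shifted by 0.29, 0.21 and 0.57, or to 1.22, 1.16 and 1.49 times the WT. The order of the mutant libraries was thus mirrored: replicate 3 stood farthest from the WT in both blocks, replicate 2 nearest. The WT libraries, each set against the other WT libraries, lay between -0.02 and 0.02 in both blocks, and no mutant value overlapped them. The mean mutant shift was -0.53 ± 0.39 on A07 and 0.36 ± 0.19 on C06 (SD, n = 3). Mutant replicate 3 weighed on both blocks: without it the mean shift was -0.30 on A07 and 0.25 on C06.

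**Figure D1:**
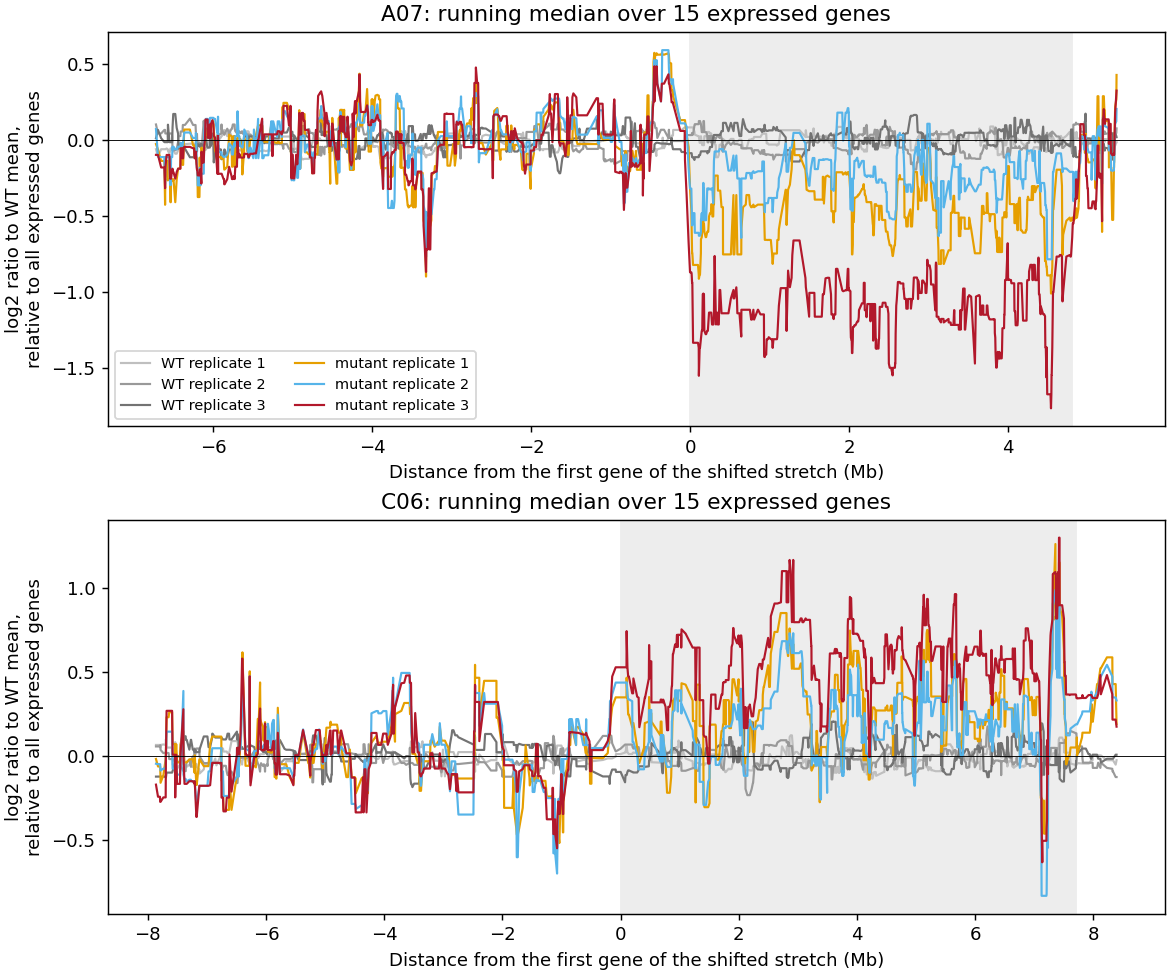
Running median, over 15 consecutive genes, of the log2 ratio to the WT mean for each library along the distal part of A07 and of C06, relative to all expressed genes, against the distance in Mb from the first gene of the shifted stretch described further on (grey band). The mutant lines part at the start of the band, with replicate 3 lowest on A07 and mostly highest on C06 (block medians of -0.97 and 0.57), while the WT lines stay near 0.

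Most members that passed the gene test did so in the direction of their block. By edgeR's quasi-likelihood test at a false discovery rate under 0.05, adjusted over all tested genes, 263 of the A07 members (45.0%) were lower in the mutant, 68 (11.6%) were higher and 254 were not called. On C06, 306 members (52.6%) were higher, 96 (16.5%) were lower and 180 were not called. Over all tested genes, 26.2% were called lower and 25.5% higher, and over the expressed genes 28.1% and 29.8%. All mutant values lay below all WT values for 294 A07 members (50.3%), against 31% of all tested genes and 32% of the expressed genes. All mutant values lay above all WT values for 311 C06 members (53.4%), against 30.1% of all tested genes and 34.3% of the expressed genes. As the block rule used this contrast, nothing is read from these shares beyond the description. The median fitted log2 fold change was -0.50 on A07, with the middle 90% of members between -2.33 and 0.94. On C06 it was 0.45, with the middle 90% between -1.92 and 1.83. Over all expressed genes the median was 0.04 and the same range ran from -1.73 to 1.43.

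The shift ran through the blocks in nearly every window of 0.5 Mb. On A07 the most proximal window, from 26 to 26.5 Mb, was not lowered: its 48 genes had median shifts of 0.12, 0.04 and 0.10 in mutant replicates 1 to 3. In the next window, from 26.5 to 27 Mb, the medians were -0.50, -0.32 and -0.87. Mutant replicates 1 and 3 were lowest between 27.5 and 28 Mb, where the medians were -0.58, -0.26 and -1.30, whereas replicate 2 was lowest in that earlier window. All A07 windows from 26.5 to 32 Mb were below 0 in every mutant library, and the one at 28 to 28.5 Mb was shallowest in the middle of the block at -0.23, -0.05 and -0.91. In the last window of the block, from 31.5 to 32 Mb, the mutant libraries drew together at -0.21, -0.17 and -0.29, and the 34 expressed genes beyond it were at 0.16, 0.10 and 0.16. On C06 all 16 windows were above 0 in mutant replicates 1 and 3 and 15 of them in replicate 2, the exception being 45 to 45.5 Mb at -0.04. The highest C06 window lay between 46.5 and 47 Mb, at 0.74, 0.64 and 0.91. In it 19 of 23 members were called higher and 1 lower, where 29.8% and 28.1% of all expressed genes were. In each of these 23 members mutant replicate 3 was above replicate 2.

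The ratio between mutant replicates 3 and 2, from which differences shared by the mutant libraries drop out, was used to locate the edges of both blocks. Along each chromosome, the run of consecutive expressed genes whose mean ratio stood apart most from the rest (least squares, at least 10 genes) was taken as the stretch. These edges were found on the same libraries and are descriptive. On A07 the stretch began with BnaA07G0291200ZS (start 26810982) and ended with BnaA07G0376400ZS (end 31619883), spanned 4.81 Mb and held 468 genes. Mutant replicate 3 was lower than replicate 2 in 457 of them (97.6%), with a median log2 ratio of -0.84, or 0.557 on the linear scale. For the middle 50% of genes the log2 ratio lay between -1.03 and -0.63. On C06 the stretch began with BnaC06G0333400ZS (start 43974389), a gene just outside the block rule, and ended with BnaC06G0444900ZS (end 51677821). It spanned 7.70 Mb and held 569 genes, 535 of which (94.0%) were higher in replicate 3 than in replicate 2, with a median log2 ratio of 0.37, or 1.29 on the linear scale. Over all expressed genes the middle 90% of this ratio lay between -0.36 and 0.37.

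The genes on the 2 sides of each edge differed in their medians, which is a description, as the edges were placed on this same ratio. Among the 20 genes inside the proximal edge of A07 the median log2 ratio of replicate 3 to replicate 2 was -0.75 and 19 were below 0, whereas the 20 genes outside had a median of -0.04. At the distal edge of A07 the medians were -0.72 inside, with all 20 below 0, and -0.05 outside. On C06 the medians were 0.37 inside and 0.01 outside the proximal edge, and 0.31 inside and -0.01 outside the distal edge, with 19 of 20 genes above 0 on the inner side of both. Single genes near the edges overlapped in this ratio on both chromosomes. On A07 the 20 outer genes reached -0.69 at the proximal edge, in BnaA07G0290300ZS, and -0.72 at the distal edge. At each A07 edge 12 of the 20 outer genes were below 0, and the inner genes of the proximal edge reached 0.05. On C06, BnaC06G0334300ZS and BnaC06G0334400ZS, just inside the proximal edge, were at 0.15 and 0.01. The distal C06 edge moved to 51.5 Mb when the mean level had to reach 5 CPM. The expressed genes on the 2 sides of an edge were 15449 bases apart at the proximal edge of A07 and 5885 at its distal edge. On C06 the distances were 69950 and 2623 bases. Neither stretch reached the last annotated gene of its chromosome: 89 expressed genes lay beyond it on A07, over 0.657 Mb, and 31 on C06, over 0.831 Mb.

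The first gene inside on A07, BnaA07G0291200ZS, was at 14.9, 13.0 and 14.2 CPM in the WT and at 11.4, 11.3 and 7.57 CPM in mutant replicates 1, 2 and 3. Its outer neighbour, BnaA07G0290800ZS, was at 0.691, 0.429 and 0.491 CPM in the WT and at 6.80, 7.97 and 7.86 CPM in the mutant. The inner gene was thus lowest in replicate 3, and the outer gene, far above its WT level, was at a like level in all mutant libraries. On C06 the first gene inside, BnaC06G0333400ZS, was at 5.91, 6.96 and 7.35 CPM in the WT and at 11.4, 11.0 and 18.9 CPM in the mutant. Its outer neighbour BnaC06G0333000ZS was at 22.2, 21.7 and 21.8 CPM in the WT and at 37.1, 36.4 and 37.5 CPM in the mutant. Both C06 genes were above all WT values in the mutant, and replicate 3 was set apart in the inner gene alone.

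**Figure D2:**
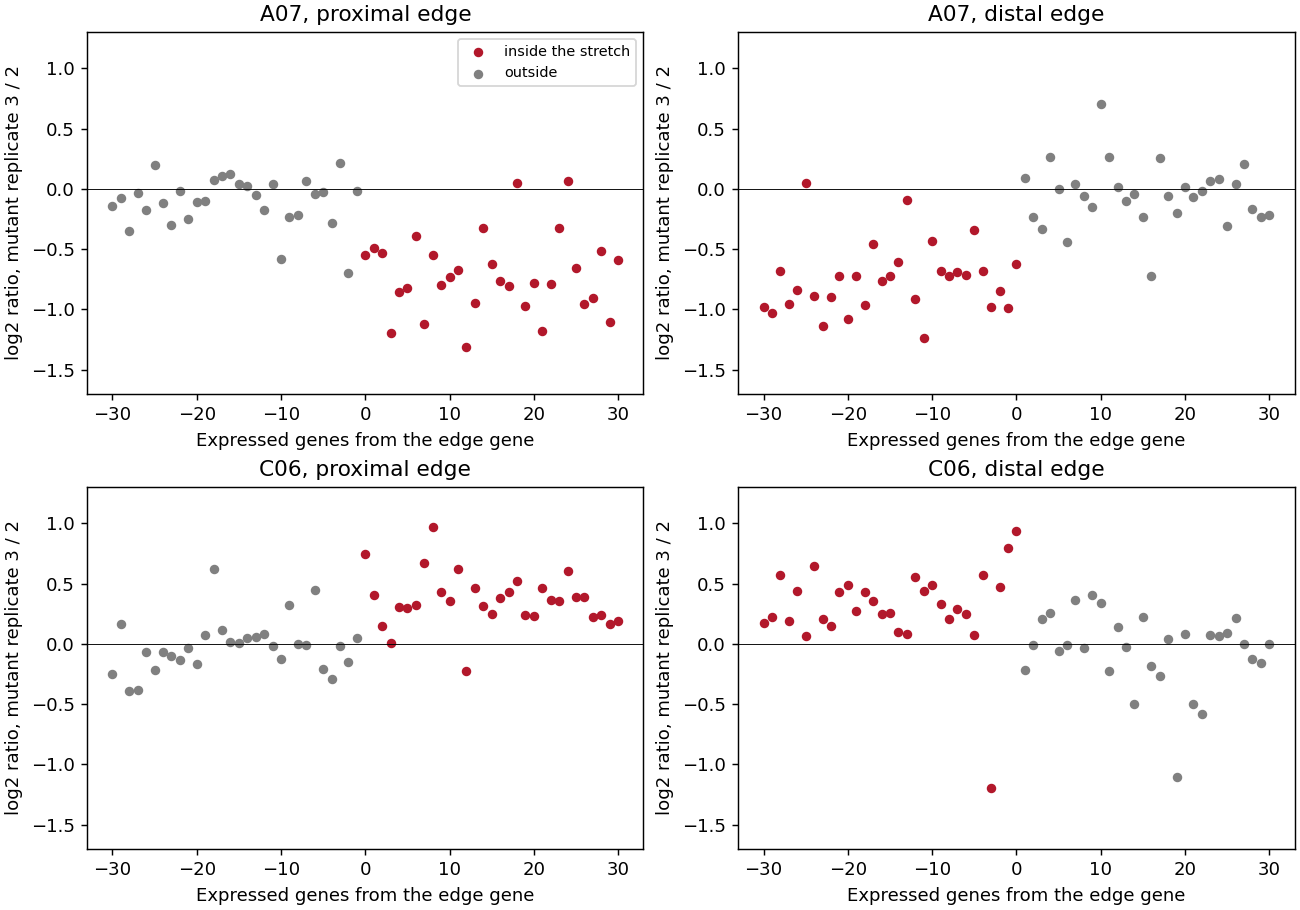
Log2 ratio of mutant replicate 3 to mutant replicate 2 for single expressed genes around the 4 edges of the A07 and C06 stretches, against the number of expressed genes from the edge gene, with genes inside in red and outside in grey. Each point is a gene; the medians of the 20 genes on the inner side are -0.75 and -0.72 on A07 and 0.37 and 0.31 on C06, and those on the outer side lie between -0.05 and 0.01.

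Other pairs of mutant libraries placed the edges close by. Each shares a library with the pair of replicates 3 and 2, so these placements are not independent of the first. With replicate 3 over replicate 1 the A07 stretch had the same first gene and ended with BnaA07G0376600ZS at 31628928, with a median log2 ratio of -0.66. With replicate 1 over replicate 2 it ran from 26.77 to 31.74 Mb, with a median of -0.19 and 79.1% of genes below 0. In the median, replicate 1 therefore lay between the other mutant libraries on A07. On C06, replicate 3 over replicate 1 gave 43.97 to 51.70 Mb with a median of 0.23. There replicate 1 over replicate 2 gave 44.10 to 51.51 Mb, with a median of 0.12 and only 65.6% of genes above 0. Set against the WT mean, mutant replicates 1, 2 and 3 each gave an A07 stretch that started at 26.81 Mb, and ended at 31.74, 31.72 and 31.64 Mb. On C06 the same search against the WT found 43.83 to 52.41 Mb in replicate 3. In replicate 1 it returned the unshifted part of the chromosome, from 6.17 to 43.80 Mb, and in replicate 2 a short run of lowered genes described further on.

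The order of the mutant libraries was also counted gene by gene. The stretches were placed on the ratio of replicate 3 to replicate 2, which partly fixes the place of replicate 3 in them. The counts are therefore a description. In the A07 stretch, replicate 3 was the lowest mutant library in 442 of 468 members (94.4%), and the full order of replicate 3 below 1 below 2 held in 351 (75%). In the C06 stretch, replicate 3 was the highest in 474 of 568 members (83.5%), and the full order of replicate 2 below 1 below 3 held in 297 (52.3%). Over all block members, replicate 3 was lowest in 494 of 585 on A07 (84.4%) and highest in 480 of 582 on C06 (82.5%). Over all expressed genes, replicate 3 was lowest in 32.3% and highest in 32.3%, and each of the 2 full orders held in 13.7%. Against the WT, the median A07 stretch member was at 0.720, 0.840 and 0.461 times the WT level in mutant replicates 1, 2 and 3. In replicate 3, 272 of these members (58.1%) were below 0.5 times the WT level, against 9.78% of all expressed genes. No stretch or block member was without a read in that library. On C06 the medians were 1.23, 1.16 and 1.49 times the WT level, and in replicate 3 the ratio was above 1 in 76.4% of stretch members. All these ratios are relative to the median of all expressed genes, which fixes the share above 1 among those genes at 50%.

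Landmark genes, chosen in each 1 Mb window as the member with the highest CPM per kb of gene span and not for their shift, show the levels behind these medians. BnaA07G0334400ZS (A07 29388632 to 29389478, minus strand) was at 1053, 1077 and 860 CPM in the WT and at 644, 736 and 314 CPM in mutant replicates 1, 2 and 3. All mutant values were below all WT values, with replicate 3 lowest by far, and the log2 fold change was -0.82 ± 0.26 (SE). BnaA07G0319900ZS (A07 28586924 to 28587532, minus strand) was at 51.2, 56.8 and 45.0 CPM in the WT and at 31.7, 41.3 and 23.1 CPM in the mutant. Its groups did not overlap and its log2 fold change was -0.67 ± 0.18. BnaA07G0351800ZS (A07 30267591 to 30268089, plus strand) was at 271, 290 and 242 CPM in the WT and at 192, 228 and 97.8 CPM in the mutant. Its groups did not overlap either, but the spread among the mutant libraries was wide and the change of -0.63 ± 0.25 was not called.

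A landmark of the same stretch went the other way against the WT and still followed the order of the libraries. BnaA07G0297900ZS (A07 27134216 to 27137448, plus strand) was at 495, 517 and 516 CPM in the WT and at 690, 712 and 414 CPM in the mutant. Replicates 1 and 2 were above all WT values and replicate 3 was below them. Its log2 fold change of 0.25 ± 0.18 was not called, whereas without mutant replicate 3 it was 0.47 and called. The landmarks at either end of the A07 block lay outside the stretch. BnaA07G0278800ZS (A07 26007671 to 26008386) had a log2 fold change of -0.64 ± 0.13 and was called lower, and BnaA07G0379900ZS (A07 31783408 to 31784275), at 0.25 ± 0.12, was not called.

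On C06, BnaC06G0343600ZS (C06 44858196 to 44862853, plus strand) was at 265, 258 and 276 CPM in the WT and at 751, 637 and 826 CPM in the mutant. All mutant values were more than double any WT value, and the log2 fold change was 1.47 ± 0.11. BnaC06G0382800ZS (C06 47810916 to 47811551, minus strand) was at 298, 307 and 339 CPM in the WT and at 729, 535 and 717 CPM in the mutant, a change of 1.07 ± 0.13. The most abundant landmark, BnaC06G0392400ZS (C06 48572295 to 48572918, minus strand), was at 1118, 1142 and 917 CPM in the WT and at 1374, 1429 and 1722 CPM in the mutant. Its groups did not overlap, with replicate 3 highest, and its log2 fold change was 0.51 ± 0.13. BnaC06G0414600ZS (0.48 ± 0.11) and BnaC06G0420800ZS (0.60 ± 0.11) were also called higher.

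The remaining C06 landmarks were not called. BnaC06G0351800ZS was at 118, 132 and 128 CPM in the WT and at 146, 104 and 92.5 CPM in the mutant, so that replicate 3 was here the lowest library. BnaC06G0360400ZS was at 58.6, 58.4 and 76.1 CPM in the WT and at 50.4, 86.6 and 97.1 CPM in the mutant, with overlapping groups. BnaC06G0437000ZS had a log2 fold change of 0.10 ± 0.10.

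**Figure D3:**
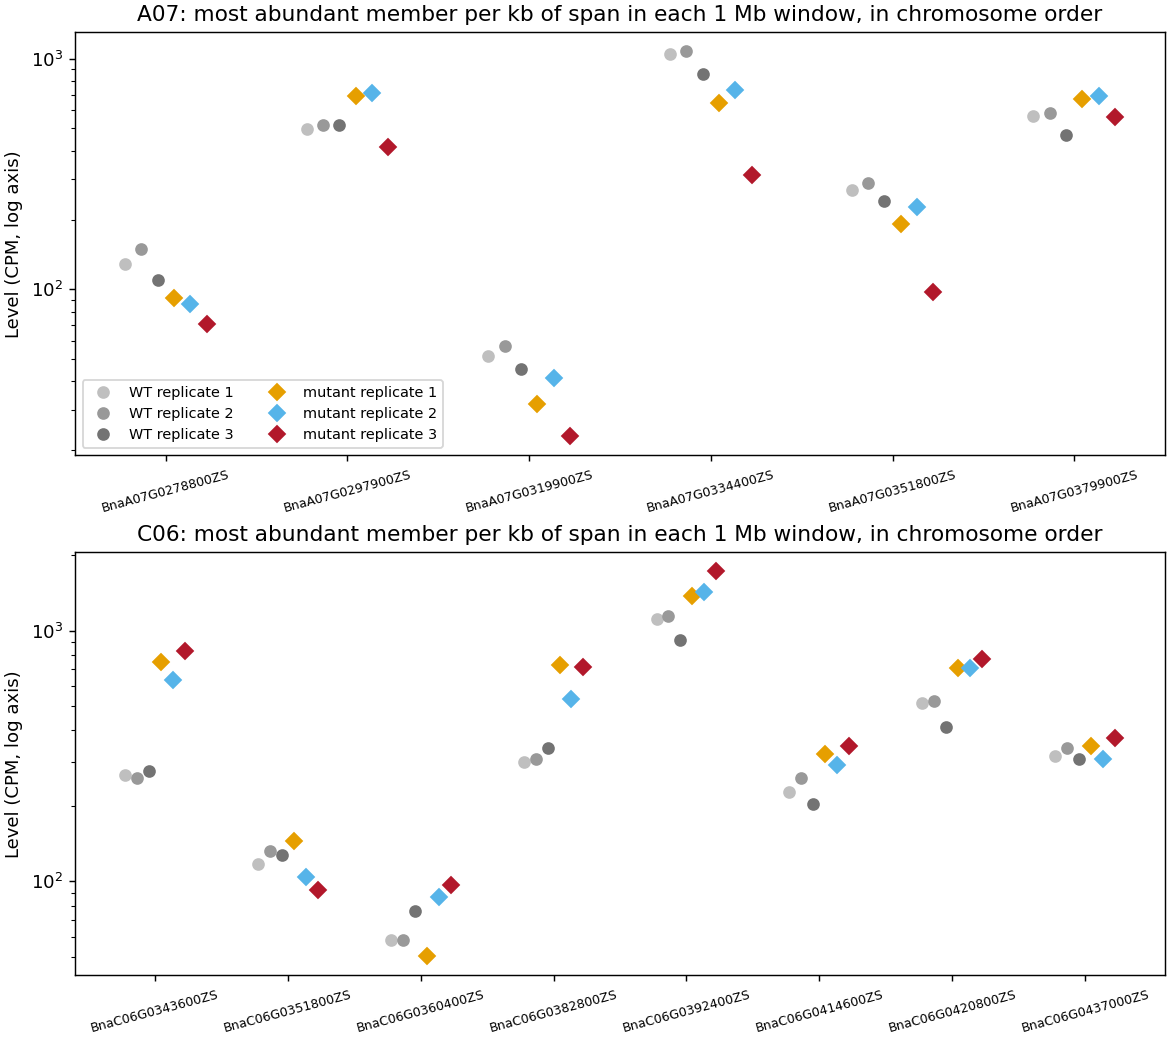
CPM in each of the 6 libraries, on a log axis, for the landmark genes of the A07 and C06 blocks in order of position. Within the A07 stretch replicate 3 is the lowest library of each of the 4 landmarks, at 314 CPM for BnaA07G0334400ZS, and most C06 landmarks are higher in the mutant, up to 1722 CPM for BnaC06G0392400ZS.

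The members with the largest fitted changes along their block, among those with a mean of at least 5 CPM, differed far more from the WT than their neighbours and did not always keep the order of the libraries. BnaA07G0323900ZS (A07 28828832 to 28830118) was at 10.7, 7.65 and 11.7 CPM in the WT and at 0.166, 0.0380 and 0.0735 CPM in the mutant, from 8, 2 and 4 reads. All mutant libraries were near 0, and the log2 fold change was -6.76 ± 0.32. BnaA07G0359700ZS changed by -4.96 ± 0.22 and BnaA07G0362200ZS by -4.01 ± 0.22. BnaA07G0284300ZS, proximal to the stretch, changed by -4.80 ± 0.14, and its mutant libraries lay close together at 4.60, 4.48 and 3.89 CPM against 106, 113 and 142 CPM in the WT.

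On C06 the largest rise was that of BnaC06G0426400ZS (C06 50535595 to 50535999), at 2.59, 2.75 and 2.72 CPM in the WT and 32.7, 28.8 and 35.0 CPM in the mutant. Its mutant values were all more than 10 times the WT values, replicate 3 again highest, and its log2 fold change was 3.58 ± 0.11. BnaC06G0359500ZS (2.99 ± 0.27), BnaC06G0374800ZS (2.91 ± 0.15) and BnaC06G0363400ZS (2.71 ± 0.09) followed.

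Members called against their block were fewer, and in most of those in the stretches replicate 3 was the lowest mutant library on A07 or the highest on C06. As the stretches were placed on the ratio of replicate 3 to replicate 2, such counts within them are a description. In the A07 stretch 27 of the 468 members were called higher, where 29.8% of all expressed genes were. In all 27 replicate 3 was the lowest mutant library, with the full order in 17 of them. Their median shift was 1.14 and 1.201 in mutant replicates 1 and 2 and 0.38 in replicate 3. BnaA07G0293000ZS (A07 26932079 to 26933794) was at 59.2, 59.0 and 63.4 CPM in the WT and at 270, 241 and 150 CPM in the mutant. It was higher in every mutant library than in any WT library, with replicate 3 the lowest mutant library, and changed by 1.86 ± 0.18. BnaA07G0340200ZS (A07 29700421 to 29703557) was at 3.52, 3.19 and 4.16 CPM in the WT and at 15.7, 16.0 and 9.26 CPM in the mutant, a change of 1.92 ± 0.20.

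The other A07 members with the largest rises lay beyond the distal edge of the stretch, where the mutant libraries lay closer together. BnaA07G0383100ZS (A07 31962947 to 31964998) was at 9.60, 8.22 and 7.64 CPM in the mutant and changed by 2.06 ± 0.14. BnaA07G0382200ZS (A07 31916499 to 31919390) was at 27.6, 30 and 33.5 CPM in the mutant and changed by 1.86 ± 0.09. Of all 117 A07 members outside the stretch, 36 were called lower and 41 higher, where 28.1% and 29.8% of all expressed genes were. The 2 sides differed. Of the 62 members proximal to the stretch, 14 were called lower and 27 higher, with median shifts of 0.17, 0.10 and 0.13 in mutant replicates 1 to 3. Of the 55 distal to it, 22 were called lower and 14 higher, with median shifts of -0.13, -0.13 and -0.23. The median log2 ratio of replicate 3 to replicate 2 in these 117 members was -0.04.

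In the C06 stretch 95 of the 568 members were called lower, where 28.1% of all expressed genes were. Replicate 3 was above replicate 2 in 80 of them and was the highest mutant library in 73, but the full order of replicate 2 below 1 below 3 held in 25 (26.3%). The median shifts were -1.17, -1.10 and -0.81 in mutant replicates 1, 2 and 3. BnaC06G0423100ZS (C06 50362987 to 50364165) was at 13.7, 14.0 and 14.2 CPM in the WT and at 0.373, 0.797 and 1.18 CPM in the mutant, a change of -4.13 ± 0.25. Its mutant values were all far below the WT, with replicate 3 the highest mutant library. BnaC06G0388600ZS (-3.42 ± 0.25) and BnaC06G0436600ZS (-3.31 ± 0.18) also had their highest mutant value in replicate 3. BnaC06G0389200ZS was at 19, 13.0 and 81.0 CPM in the WT and at 2.57, 2.32 and 2.54 CPM in the mutant. WT replicate 3 decided much of its change of -3.92 ± 0.64, which was -2.69 without that library.

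**Figure D4:**
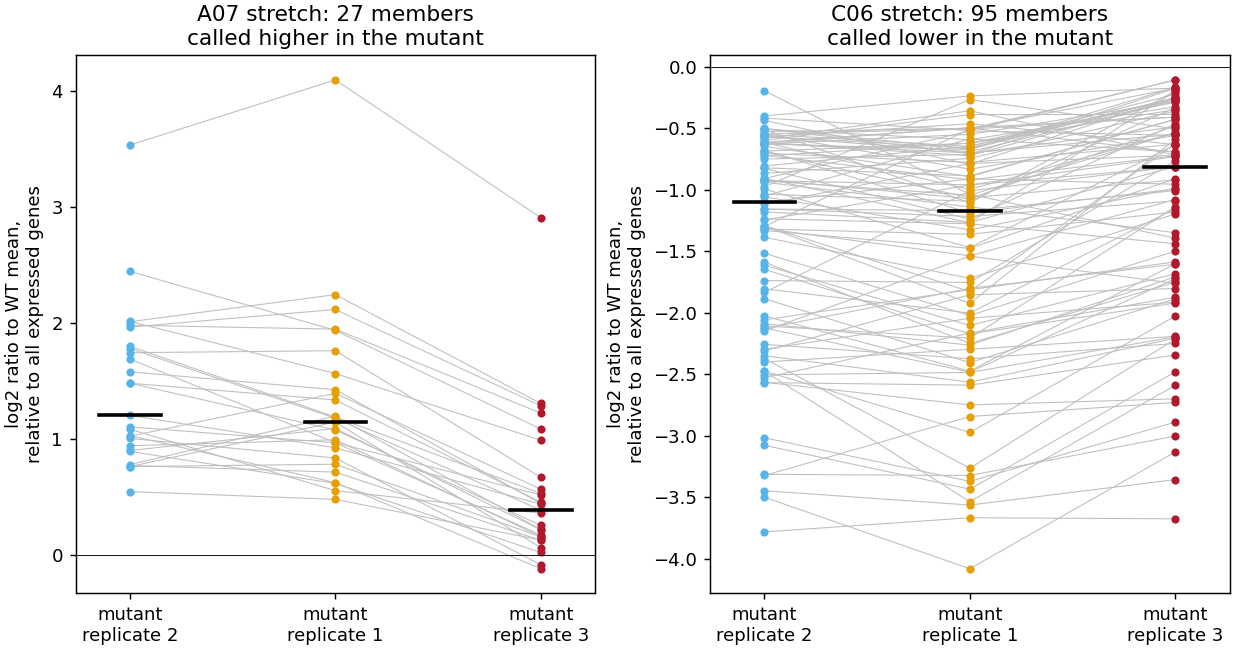
Log2 ratio to the WT mean, relative to all expressed genes, in mutant replicates 2, 1 and 3 for the stretch members called against their block, with 1 line for each gene and black bars for the medians. The 27 A07 members fall from medians of 1.201 and 1.14 to 0.38 in replicate 3, and the 95 C06 members go from -1.10 and -1.17 to -0.81.

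Members that were not called in the gene test showed the same order of libraries in their medians. This too is a description, as the stretches were placed on the ratio of replicate 3 to replicate 2. The 214 uncalled members of the A07 stretch had median shifts of -0.15, 0.03 and -0.81 in mutant replicates 1, 2 and 3, so that they were far below the WT in replicate 3 alone. The 172 uncalled members of the C06 stretch were at -0.05, -0.10 and 0.21. In the A07 stretch 11 genes went against the order of replicates 3 and 2, and in the C06 stretch 34 did. The largest exception on A07 was BnaA07G0314700ZS, where replicate 3 exceeded replicate 2 by 0.51 on the log2 scale, with 25.3, 13.4 and 19.4 CPM in mutant replicates 1, 2 and 3. On C06 it was BnaC06G0443100ZS, a short distance inside the distal edge, at -1.19, with 1.66, 3.34 and 1.18 CPM. Both were picked after their values were seen.

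One local run on C06 stood against its surroundings in the comparison with the WT. Its 10 consecutive members between 51096672 and 51188326 had log2 fold changes from -4.51 to -0.16. Of them 8 were called lower and none higher, where 28.1% and 29.8% of all expressed genes were. Mutant replicate 3 was nevertheless above replicate 2 in 8 of the 10. The lowest of them, BnaC06G0435700ZS, was at 5.51, 4.71 and 9.68 CPM in the WT and at 0.228, 0.228 and 0.404 CPM in the mutant, all mutant values being far below the WT. This run was found by searching for it and has no test.

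Strand and gene span, which the block rule did not use, went with small differences in the split of the mutant libraries, and level with larger ones on A07. In the A07 stretch the median log2 ratio of replicate 3 to replicate 2 was -0.81 for members on the plus strand and -0.88 for those on the minus strand, and on C06 it was 0.37 on either strand. Split in equal groups by gene span, the A07 medians were -0.88, -0.83 and -0.84 from short to long genes, and the C06 medians 0.34, 0.36 and 0.38. Split by mean level, the A07 medians were -0.70, -0.87 and -0.95 from low to high, and those of C06 0.31, 0.38 and 0.38. The shift from the WT differed more with span. In mutant replicate 1 it was -0.58, -0.49 and -0.35 from short to long genes on A07, and 0.10, 0.31 and 0.37 on C06. Replicates 2 and 3 changed in the same direction with span. The shift thus rose from short to long genes in both stretches, whatever the direction of the block. A split by span is not given here for all expressed genes, so this trend cannot be called particular to the blocks. By level, the shift of replicate 1 was -0.48, -0.41 and -0.51 from low to high on A07, and 0.10, 0.26 and 0.43 on C06. The 0.5 CPM added to each value draws the ratios of low genes towards 0. Expressed genes were denser in the A07 stretch than in the C06 stretch, at 97.3 and 73.9 per Mb. On A07, 13 members overlapped another annotated gene on the opposite strand, and on C06 6 did. No source used here gives the use of strand in counting, so their reads cannot be told apart from those of the partner. Reads shared by near-identical A and C copies may be split between them, which leaves the value of a single copy uncertain.

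Summed over members, the fall on A07 and the rise on C06 were of nearly the same size in CPM. The 585 A07 members held 14953, 15459 and 15050 CPM in the WT and 11719, 13244 and 7913 CPM in mutant replicates 1, 2 and 3. The 582 C06 members held 11632, 12016 and 12292 CPM in the WT and 15611, 14673 and 18444 CPM in the mutant. In both sums every mutant library lay outside the range of the WT, with replicate 3 farthest. The means were 15154 ± 269 CPM in the WT and 10958 ± 2746 CPM in the mutant on A07, and 11980 ± 331 and 16243 ± 1963 CPM on C06 (SD, n = 3). Added together, the blocks held 26585, 27475 and 27342 CPM in the WT and 27330, 27917 and 26356 CPM in the mutant, so that the groups overlapped, at means of 27134 ± 480 and 27201 ± 788 CPM. The 10 most abundant members made up 35.2% of the A07 sum and 34.4% of the C06 sum. Genes below the level filter moved in the same directions: on A07 they summed to 96.6, 97.8 and 107 CPM in the WT and to 72.7, 79.6 and 48.6 CPM in the mutant. On C06 the corresponding sums were 66.1, 64.7 and 76.9 CPM in the WT and 80.4, 71.0 and 88.3 CPM in the mutant, and mutant replicate 2 fell within the WT range.

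**Figure D5:**
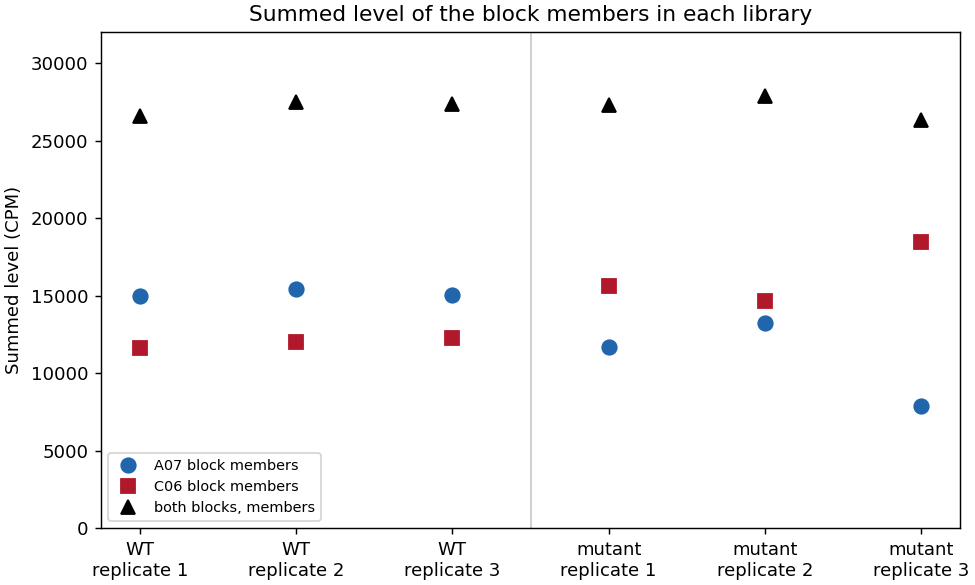
Summed CPM in each library of the 585 A07 members (circles), the 582 C06 members (squares) and both blocks together (triangles). The A07 sum is down to 7913 CPM and the C06 sum up to 18444 CPM in mutant replicate 3, while the total lies between 26356 and 27917 CPM in all 6 libraries.

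On the proximal side of the blocks, the flanks as a whole were close to the WT, although single windows were not, such as that of C06 from 43.5 to 44 Mb, where 10 genes were at 0.46, 0.54 and 0.33. On A07 between 20 and 26 Mb, 546 expressed genes had a mean mutant shift of -0.01 ± 0.03 (SD, n = 3), with an exact two-sided permutation p of 0.7 against the WT libraries. On C06 between 36 and 44 Mb, 354 expressed genes had a mean mutant shift of -0.01 ± 0.01 (SD, n = 3), with an exact two-sided permutation p of 0.8. With 3 libraries against 3 the smallest p this test can give is 0.1, so these values do not show equality. Called lower and higher were 27.1% and 29.5% of the flanking A07 genes and 27.4% and 31.6% of the flanking C06 genes. On the distal side both chromosome ends were above the WT. The 34 expressed genes at the end of A07 had a mean shift of 0.14 ± 0.04 and the 17 at the end of C06 0.23 ± 0.09, each at the smallest exact permutation p of 0.1 (n = 3).

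The split of mutant replicates 3 and 2 was also followed across the genome. As the stretches were placed on the ratio of replicate 3 to replicate 2, setting them against other runs is a description. In consecutive runs of 20 expressed genes, the 23 runs of the A07 stretch had median log2 ratios between -1.03 and -0.70, and the 28 runs of the C06 stretch between 0.23 and 0.46. The other 2099 runs lay between -0.44 and 0.33. A single one of them was below -0.2, and it straddled an edge of the A07 stretch. Above 0.2 there were 22, of which 12 lay on A05, 7 on A09 and 1 each on A01, C06 and C08. Those on A05 ran from 0.20 to 0.32 and those on A09 from 0.22 to 0.33. Both ranges overlapped that of the runs in the C06 stretch, so a split of that size was not particular to C06.

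The genes at the limits of the rule differed widely among themselves. The first A07 member, BnaA07G0278700ZS, was at 1.73, 1.46 and 1.98 CPM in the WT and at 1.47, 1.61 and 1.86 CPM in the mutant. The nearest expressed gene before it, BnaA07G0278600ZS, was at 70.9, 67.7 and 78.7 CPM in the WT and at 5.77, 9.74 and 10.03 CPM in the mutant, a called change of -3.09 ± 0.18. The last A07 member, BnaA07G0383900ZS, had a log2 fold change of -0.69 ± 0.25 and the next gene outside, BnaA07G0384000ZS, one of -0.04 ± 0.14. Both ends of the A07 rule thus lay outside the stretch. On C06 the first member, BnaC06G0334100ZS, had a change of 0.51 ± 0.20 and the gene before it, BnaC06G0333400ZS, one of 1.03 ± 0.20. The last C06 member, BnaC06G0449600ZS, was at -0.67 ± 0.20 and the next gene, BnaC06G0450700ZS, at -0.49 ± 0.19. At the level filter, BnaA07G0333800ZS averaged 1.009 CPM and was kept while BnaA07G0372700ZS at 0.999 CPM was not, and on C06 BnaC06G0357800ZS at 1.003 CPM was kept and BnaC06G0377300ZS at 0.999 CPM was not.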

How the data were processed

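The authors deposited raw counts, 1 value for each gene and library, in tables whose columns are those of featureCounts, per the file headers. The submitters' processing notes name fastp, HISAT2 and featureCounts. Not given in the sources used here are versions, genome build, use of strand and treatment of reads with several matches. Coordinates are those of the files, counted from 1. In 100% of rows the stated length equalled the whole gene span, so counts can include introns.

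Genes were tested with edgeR 4.0.16 in R 4.3.3 (filterByExpr, TMM, quasi-likelihood F test, no covariate, Benjamini-Hochberg over 56385 genes), after a check on simulated counts. Members were selected on plain CPM, and printed levels are CPM after TMM scaling. Flanks were compared with an exact permutation test over libraries. Genotypes and replicate numbers came from the labels.

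Stretch edges were found by least squares on log2 ratios limited to 2 in either direction. Named genes were the landmark of each 1 Mb window, the 4 largest called changes along and against each block (mean of at least 5 CPM, groups not overlapping), and the genes at the limits of the rule. Genes chosen otherwise are named as such or lie at an edge of a stretch. Members, lists and measures were chosen with earlier results of these data known. A table of 123214 genes from the Da-Ae assembly matched 0 identifiers, so names and sequences were not used here. Same-numbered libraries of the genotypes deviated together with r of 0.13, -0.01 and 0.10, so the numbers were not taken to pair them. Alternatives were DESeq2 1.42.0, other scaling, offsets and filters, a replicate block and leaving out each library.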

Additional observations from a re-analysis of the deposited data

How the results depend on the processing

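The shifts of the A07 and C06 blocks kept their direction under the alternatives run. Leaving out 1 library at a time gave 234 to 323 A07 members called lower and 49 to 94 higher, and 252 to 307 C06 members called higher and 78 to 111 lower. The mean A07 shift then ranged from -0.68 to -0.30 and the C06 shift from 0.25 to 0.43. A fit with the replicate number as a block called 297 A07 members lower and 67 higher, and 305 C06 members higher and 103 lower, and the numbers were not shown to pair the libraries. DESeq2 called 276, 67, 303 and 96. Restricting members to a mean of at least 5 CPM left 158 A07 members called lower and 52 C06 members called lower, as fewer genes were counted, and put the distal C06 edge at 51.5 Mb. An offset of 2 CPM gave shifts of -0.39 and 0.28. The flanks, near 0, turned to 0.012 on A07 and 0.018 on C06 when not set relative to all expressed genes. The summed level of both blocks, mutant over WT, was 1.00 and turned to just below 1, at 0.970, without the 10 most abundant members, an alternative chosen after seeing the data, as was the edge at 5 CPM. Among 40 genes named by the rule, 413 of 440 refitted changes kept their direction and call, 10 lost the call, 14 gained it and 3 turned. With 1 library left out, BnaA07G0278700ZS ranged from -0.19 to 0.051, above 0 without WT replicate 3 and, at 0.02, without mutant replicate 1. BnaA07G0384000ZS ranged from -0.14 to 0.054, above 0 without mutant replicate 3. The cause was not tested. Counting error is small at this depth except in the lowest genes, and the 3 libraries a genotype limit the precision.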
